A study of Mus musculus with 22 samples.

Results

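ATRX and histone H3 trimethylated at lysine 9 (H3K9me3) were mapped by ChIP-seq in control mouse embryonic stem (ES) cells, and the peak lists of both marks are compared here as the baseline of ATRX and heterochromatin in these cells. The lists were chosen by their sample titles and knockdown labels: ATRX replicates 1 and 2 and H3K9me3 replicates 1 and 2 of scramble KD, 4 of the 22 samples of a series that also holds TERRA KD, inputs, G-quadruplex (G4) ChIP-seq and ATAC-seq. The cells are ES cells of CAST/Ei x 129/Sv/Jae strain background, which the study describes as an XX line, grown with serum and LIF. The cells of all 4 libraries had received a scramble LNA gapmer, an antisense oligonucleotide with no intended target, and were fixed after 12 h, so they are treated controls and not untouched cells. The study prepared the cells from cultures on feeder fibroblasts that were removed before the LNA was delivered. The source field of these samples names TERRA KD, against their titles and knockdown fields, which were followed. ATRX replicate 1 and H3K9me3 replicate 1 were called by the authors against the same input library of 3366921 tags, and ATRX replicate 2 and H3K9me3 replicate 2 against another of 19735093 tags. An overlap between lists of the same replicate number therefore shares an input, and an overlap between lists of different numbers does not, so both are given throughout. The study calls the replicates of its ATRX ChIP-seq biological. Neither it nor the labels say so for H3K9me3 or name separate cultures, so the spread between the lists may in part be technical.

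ATRX is a SWI/SNF-type chromatin remodeler that works with the histone chaperone DAXX to deposit the histone variant H3.3 at repetitive DNA, including telomeres, pericentromeric repeats and endogenous retroviruses. H3K9me3 is the modification that marks constitutive heterochromatin. In ES cells it is laid down over retroviral elements and over clusters of zinc finger genes by SETDB1 with its corepressor TRIM28, and at pericentromeres by the SUV39H enzymes. The ADD domain of ATRX binds histone H3 tails that carry H3K9me3 and lack methylation at lysine 4, and the comparison asks where the protein and the mark lie together and where they do not.

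ATRX peaks of both replicates overlapped each other in 385 pairs, some of which lay on telomeric tracts or tandem repeats and most of which did not. The share of the pairs on repeats of any kind was not measured. Telomeric tracts, stretches of the telomeric repeat, lay under 99 of the pairs, and some of these are inside genes. H3K9me3 peaks overlapped 81 of the 99 in 1 replicate only, 15 in both and 3 in neither. The named genes come from the last 2 of these classes. Dapk1 encodes a death-associated protein kinase, Pepd a peptidase that releases proline, Bbox1 the last enzyme of carnitine synthesis and A1cf a cofactor of RNA editing. H3K9me3 peaks of both replicates overlapped the sites in Dapk1, Pepd and Bbox1, and no H3K9me3 peak overlapped the A1cf site.

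Other pairs lay on tandem repeats with longer units, of which 3 stretches of 200 bp (GRCm38, plus strand) are shown in lower case, since such repeats occurred in genes with and without H3K9me3 at the site. Arhgap10 encodes a GTPase-activating protein, and its intronic site (chr8:77449183-77449382) repeats with a period of 26 bp at 99.4% identity. The Lrrfip2 site (chr9:111176487-111176686, intron) repeats with a period of 23 bp at 80.8% identity. Both carried H3K9me3 in both replicates. Mpdz encodes a scaffold protein of cell junctions, and its intronic site (chr4:81330141-81330340) repeats with a period of 42 bp at 92.4% identity and carried no H3K9me3 peak.
Arhgap10: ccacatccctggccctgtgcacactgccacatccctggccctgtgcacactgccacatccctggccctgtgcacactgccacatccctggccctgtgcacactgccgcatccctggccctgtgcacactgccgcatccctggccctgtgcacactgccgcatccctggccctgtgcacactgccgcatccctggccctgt
Lrrfip2: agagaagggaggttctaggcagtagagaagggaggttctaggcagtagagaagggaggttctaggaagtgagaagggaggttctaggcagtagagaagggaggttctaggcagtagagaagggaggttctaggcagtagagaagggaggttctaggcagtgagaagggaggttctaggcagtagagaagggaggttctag
Mpdz: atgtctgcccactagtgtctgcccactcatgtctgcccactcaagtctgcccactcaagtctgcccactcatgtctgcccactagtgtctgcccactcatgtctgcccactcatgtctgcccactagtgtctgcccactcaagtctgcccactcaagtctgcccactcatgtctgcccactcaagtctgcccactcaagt

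The ATRX lists held 7321 peaks in replicate 1 and 13652 in replicate 2, and the H3K9me3 lists held 26414 and 76213. Both H3K9me3 lists were longer than both ATRX lists, although the replicates of each mark also differed from each other. The log2 ratio of H3K9me3 to ATRX was 1.85 for the lists numbered 1 and 2.48 for those numbered 2, 2.17 on average (exact permutation test over the 4 lists, two-sided, p = 0.33, the smallest that 2 lists against 2 allow). ChIP depth did not follow this order. It was 6606064 and 15506154 tags for ATRX and 12090614 and 5942692 for H3K9me3, so the longest list came from the shallowest of the 4 libraries. Most ATRX peaks rested on few reads, with a median of 6 and 10 tags per peak, and the median was 57 and 6 tags for H3K9me3.

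Peak width separated H3K9me3 replicate 1 from the other 3 lists rather than one mark from the other. The median ATRX peak was 432 bp wide in replicate 1 and 534 bp in replicate 2. The median H3K9me3 peak was 2404 bp wide in replicate 1 and 491 bp in replicate 2. H3K9me3 replicate 1 was thus a list of domains, of which 95.4% were at least 1 kb and 789 at least 10 kb wide, up to 37716 bp. In the other 3 lists 3.26% to 6.53% of the peaks reached 1 kb, and no ATRX peak exceeded 7230 bp. The log2 ratio of median widths was 2.48 in replicate 1 and -0.12 in replicate 2 (mean 1.18, exact permutation p = 0.667). Over whole lists the direction was thus not shared by the replicates. H3K9me3 peaks covered 3.21% and 1.67% of the sequenced genome and ATRX peaks 0.135% and 0.301%, a mean difference of 2.23 percentage points in which both H3K9me3 lists exceeded both ATRX lists (exact permutation p = 0.33).

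**Figure D1:**
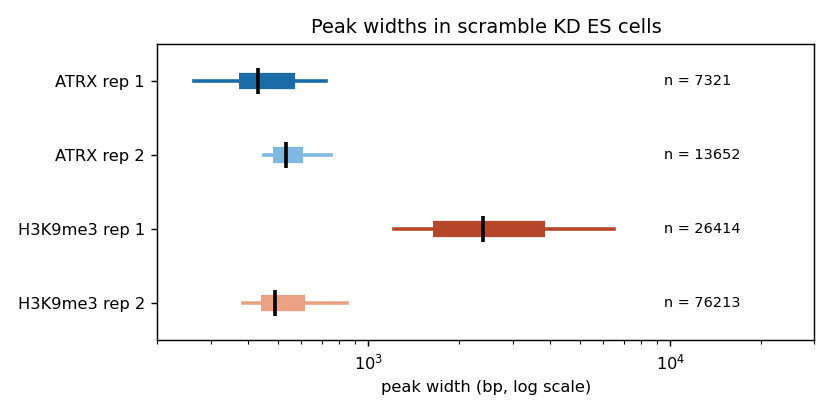
Peak width in bp on a log scale for each scramble KD list, with the median as a black tick, the 25th to 75th percentile as a thick bar, the 10th to 90th percentile as a thin line and the number of peaks at the right. H3K9me3 replicate 1, with a median of 2404 bp, lies to the right of the other 3 lists, whose medians run from 432 to 534 bp.

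By the position of the peak centre in the curated RefSeq annotation, ATRX peaks were spread over genes and intergenic DNA much like the genome itself, and H3K9me3 peaks were more intergenic. Intergenic DNA, outside every curated transcript, held 57.7% and 62.7% of the ATRX peaks and 77.2% and 75.2% of the H3K9me3 peaks, where the genome holds 59.2%. Both H3K9me3 values lay above both ATRX values, by 16.0 percentage points on average (exact permutation p = 0.33). Introns held 36.3% and 33.7% of the ATRX peaks and 20.4% and 22.9% of the H3K9me3 peaks, where the genome holds 36.1%.

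Few peaks of either mark lay at promoters, taken from 1000 bp before a transcript start to 100 bp past it, which make up 1.19% of the genome. ATRX placed 143 peaks there in replicate 1 (1.96%) and 69 in replicate 2 (0.507%), and H3K9me3 placed 114 (0.433%) and 258 (0.340%). Only ATRX replicate 1 was above the share of the genome, so the replicates of ATRX fell on opposite sides of it. H3K9me3 minus ATRX came to -1.53 and -0.168 percentage points in the replicates (mean -0.848, exact permutation p = 0.33). Coding exons held 1.495% and 0.978% of the ATRX peaks and 0.718% and 0.458% of the H3K9me3 peaks (genome 1.26%), and 3' UTRs held 0.960% and 1.01% against 0.372% and 0.386% (genome 0.839%). The ATRX share was above the H3K9me3 share in both replicates for each of these exonic classes.

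Along the chromosomes, ATRX peaks were densest on chromosomes 6 and 8. Density is given as peaks per sequenced Mb divided by the median of the autosomes of the same list. On chromosome 6 it was 2.51 and 4.09 for ATRX and 1.37 and 1.91 for H3K9me3, and on chromosome 8 it was 2.55 and 3.76 for ATRX and 1.32 and 1.72 for H3K9me3. All 4 lists were thus raised on these chromosomes, ATRX more than H3K9me3 in both replicates. The other autosomes ran from 0.817 to 1.26 and from 0.827 to 1.91 for ATRX, the last on chromosome 14, and from 0.742 to 1.26 for both H3K9me3 lists together. G4 peaks of the same cells stood at 1.30 and 1.14 on chromosome 6 and 1.38 and 1.23 on chromosome 8, and ATAC peaks at 1.14 and 1.13, and 1.28 and 1.23. The copy number of chromosomes 6 and 8 in these cells was not tested, and results were recomputed without them where chromosomes enter.

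Chromosome X carried relatively more H3K9me3 than ATRX. Its peak density over that of the pooled autosomes was 0.731 and 0.883 for ATRX and 1.22 and 1.21 for H3K9me3, with both H3K9me3 values above both ATRX values. On the log2 scale H3K9me3 exceeded ATRX by 0.737 and 0.458 (mean 0.597, exact permutation p = 0.33), and by 0.367 without chromosomes 6 and 8, an alternative chosen after the data were seen. Among peaks whose -log10 p reached 5 the mean difference was -0.138, so the stronger peaks did not keep this direction.

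**Figure D2:**
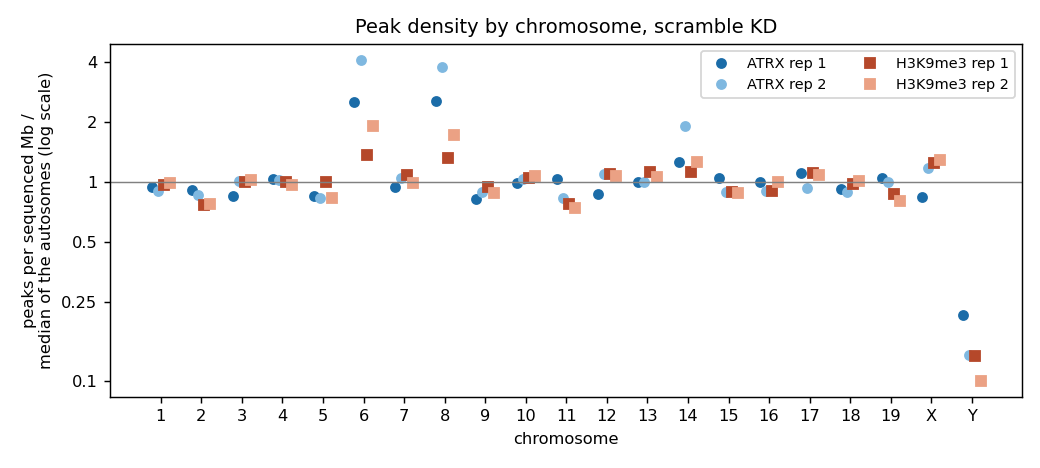
Peaks per sequenced Mb of each chromosome divided by the median of the autosomes, on a log axis, with ATRX as circles and H3K9me3 as squares. ATRX rises to 2.51 and 4.09 on chromosome 6 and 2.55 and 3.76 on chromosome 8, and all 4 lists fall on chromosome Y to between 0.101 and 0.217.

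Mutual overlap was partial and unequal in both directions. Of the ATRX peaks, 1567 of replicate 1 (21.5%) and 2216 of replicate 2 (16.3%) shared at least 1 bp with an H3K9me3 peak of the same number. Against the H3K9me3 list of the other number, which shares no input, the shares were 18.2% and 13.4%. In the other direction, 1432 H3K9me3 peaks of replicate 1 (5.44%) and 2405 of replicate 2 (3.17%) overlapped an ATRX peak of the same number, and 6.32% and 1.94% one of the other number. Most ATRX peaks thus lay outside the H3K9me3 peaks detectable at these depths, and most H3K9me3 peaks held no ATRX peak.

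The centres of ATRX peaks lay inside H3K9me3 peaks for 21.2% of replicate 1 and 12.4% of replicate 2, where the H3K9me3 peaks covered 3.21% and 1.67% of the sequenced genome. These shares were 6.59 and 7.41 times the covered share, and 8.64 and 3.96 times between lists of different numbers. The difference was 17.97 and 10.7 percentage points, above 0 in both replicates (mean 14.3, exact sign-flip test over the replicates, two-sided, p = 0.5, the smallest that 2 replicates allow). The H3K9me3 centres lay inside ATRX peaks for 1.35% and 2.06%, where ATRX covered 0.135% and 0.301%, a difference of 1.21 and 1.76 points (exact sign-flip p = 0.5).

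Overlap was local. H3K9me3 replicate 1 peaks held 21.1% of the ATRX replicate 1 summits and 4.44% of the positions 50 kb upstream, where the genome value was 3.21%. Summits of ATRX inside an H3K9me3 peak fell in its central 50% for 68.6% in replicate 1 and 62.3% in replicate 2. Outside, the median distance from an ATRX summit to the nearest H3K9me3 peak was 44750 bp in replicate 1 and 11193 bp in replicate 2. The H3K9me3 lists differ in length and in peak width, so these distances describe the lists and not only the cells.

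**Figure D3:**
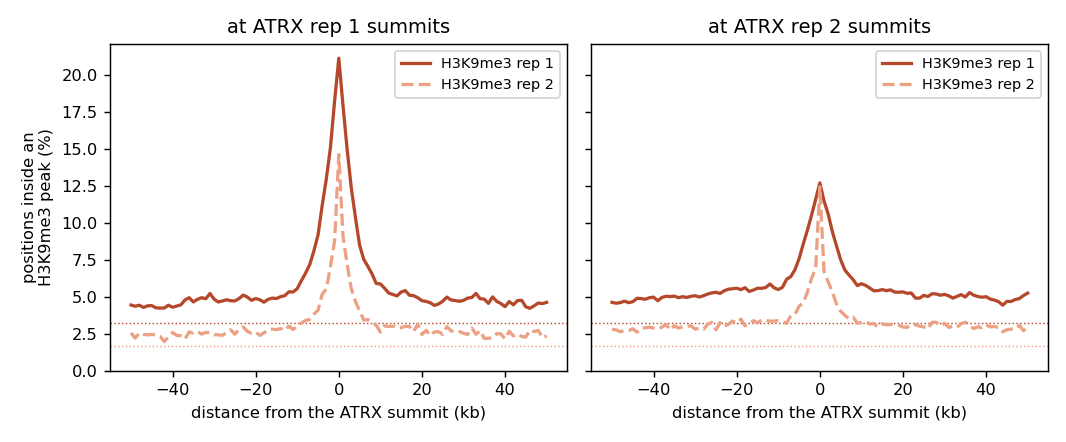
Share of positions inside an H3K9me3 peak, in percent, by distance in kb from the summits of ATRX replicate 1 (left) and replicate 2 (right), with H3K9me3 replicate 1 as solid and replicate 2 as dashed lines and the genome share of each as a dotted line. At the summit the share is 21.1% and 14.6% for ATRX replicate 1 and 12.7% and 12.4% for ATRX replicate 2, above every dotted line.

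The stronger an ATRX peak ranked in its own list, the more often it overlapped H3K9me3. Among the 100 strongest ATRX peaks of replicate 1, 69 overlapped an H3K9me3 peak of replicate 1 and 80 one of replicate 2, and among the 5000 weakest the shares were 16.8% and 12.7%. For ATRX replicate 2, 91 of the 100 strongest overlapped H3K9me3 replicate 2 but 30 overlapped H3K9me3 replicate 1, and the 5000 weakest stood at 11.4% and 10.5%. Telomeric tracts move with this gap, since 62 of the 100 strongest ATRX peaks of replicate 2 lay on such a tract, as did 28 of the 100 strongest H3K9me3 peaks of replicate 2 and none of replicate 1. Of the ATRX peaks whose -log10 p reached 5, 172 and 180 in number, 51.7% and 66.7% overlapped an H3K9me3 peak of the same number that also passed this value.

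By feature, intergenic ATRX peaks overlapped H3K9me3 most often, in 29.3% of replicate 1 and 20.02% of replicate 2, and intronic ones in 11.3% and 10.2%. Promoter peaks of ATRX overlapped H3K9me3 in 7 of 143 and 4 of 69 cases. This order, intergenic above intronic above promoter, held in both replicates and also against the H3K9me3 list of the other number. By chromosome, overlap was lowest on chromosomes 6, 8 and 19, at 14.6%, 12.9% and 14.9% in replicate 1 and 11.3%, 10.4% and 9.01% in replicate 2. Chromosomes 6 and 8 are those with the most ATRX peaks. Chromosome X stood at 32.0% and 26.0%.

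**Figure D4:**
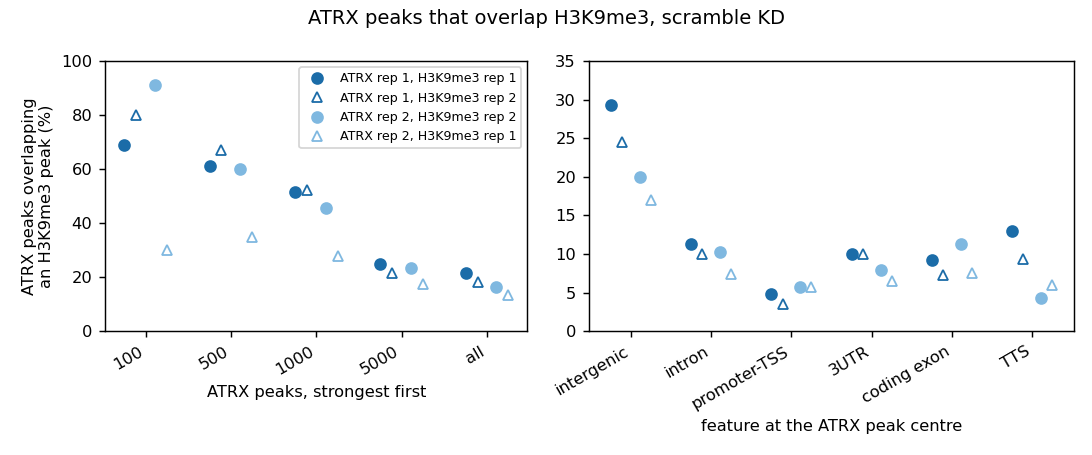
Percent of ATRX peaks that overlap an H3K9me3 peak, by rank of the ATRX peak (left) and by the feature at its centre (right), with circles for the list of the same replicate number and triangles for the other number. The share falls from 69% and 91% of the 100 strongest peaks to 21.5% and 16.3% of all peaks, and ATRX replicate 2 against H3K9me3 replicate 1 starts lower, at 30%.

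In replicate 1 the widest H3K9me3 domains held ATRX most often. Of its domains, 2.10% of the domains of 1000 to 2000 bp, 3.77% of 2000 to 5000 bp, 15.1% of 5000 to 10000 bp and 29.0% of those over 10000 bp (228 of 786) overlapped an ATRX peak. A wider domain offers more sequence, and per Mb of domain the number of ATRX peaks was 14.1, 12.8, 24.6 and 28.0, so the rise remained from 5000 bp on. The 1184 domains of 500 to 1000 bp stood at 3.63% and 41.5 peaks per Mb, where an ATRX peak that crosses the edge of a domain counts in full. In replicate 2, whose peaks are narrow, 1.902% of those under 500 bp and 9.86% of those of 1000 to 2000 bp overlapped an ATRX peak, with 44.0 and 77.9 ATRX peaks per Mb. Among its 634 peaks of 2000 to 5000 bp the share was higher, 18.9%, but the density was 72.9 per Mb, and it was 51.9 per Mb for the 30 peaks of 5000 to 10000 bp, of which 9 held ATRX. Of the 4 peaks over 10000 bp, 0 overlapped ATRX replicate 2 and 3 overlapped ATRX replicate 1. The density per Mb therefore did not rise up to the widest class in replicate 2. The median width of H3K9me3 peaks with and without ATRX was 5223 and 2344 bp in replicate 1 and 618 and 490 bp in replicate 2. The H3K9me3 peaks with ATRX were also stronger, with a median -log10 p of 16.5 against 3.92 in replicate 1 and 3.67 against 2.75 in replicate 2.

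ATRX peaks with and without H3K9me3 lay on different DNA. Over 500 bp at the summit, the share of bases soft-masked as repeats in the reference was 75.8% with and 32.7% without H3K9me3 in replicate 1, and 74.7% and 41.8% in replicate 2, where the genome has 36.4%. The first class was thus on repeats more often than the second in both replicates. H3K9me3 peaks with ATRX, which are largely the same sites seen from the other list, stood at 76.5% and 75.2%. Divided by the H3K9me3 list of the other number, which shares no input, the ATRX values were 76.5% and 34.3%, and 77.9% and 42.4%. CpG dinucleotides per 500 bp numbered 12.6 with and 4.59 without H3K9me3 in replicate 1, and 7.38 and 3.496 in replicate 2 (genome 4.13). Soft-masking covers retroviral elements, LINEs, SINEs and simple repeats alike, and their families were not analysed here. H3K9me3 peaks without ATRX were also repeat-rich, at 67.5% and 61.4%. Over whole lists the masked share was 42.0% and 47.1% for ATRX and 68.0% and 61.8% for H3K9me3, a difference of 20.3 points (exact permutation p = 0.33).

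Reads from repeats align to one of several like copies, so the exact copy under such a peak is uncertain. CA repeats showed the reverse order. Runs of at least 10 CA units (or TG on the other strand) lay in 1.53% of the ATRX windows with and 4.88% of those without H3K9me3 in replicate 1, and in 1.08% and 3.43% in replicate 2, where 4.68% of all genome windows hold one. ATRX peaks in H3K9me3 were also more often intergenic, at 78.6% against 52.0% and 77.0% against 59.9%. Their median width was 587 against 420 bp and 590 against 528 bp.

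**Figure D5:**
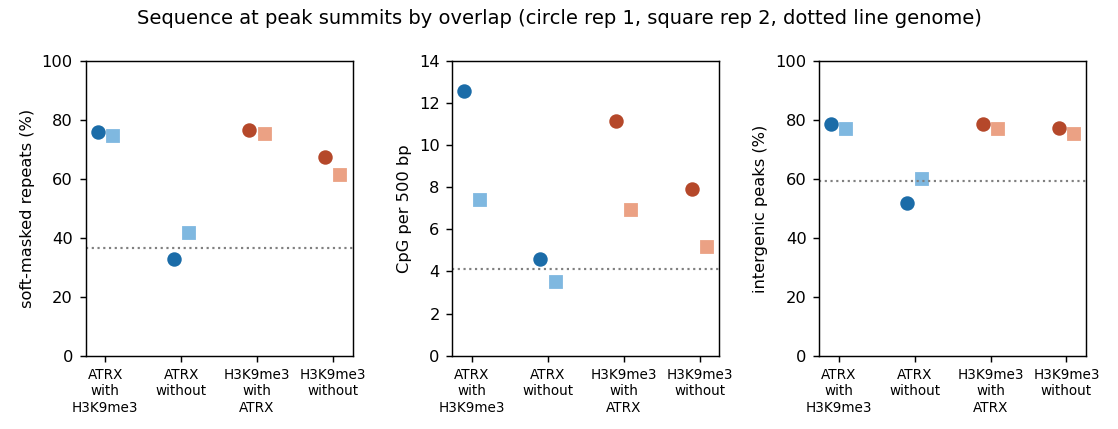
Soft-masked repeats in percent and CpG dinucleotides per 500 bp at the summit, and the percent of intergenic peaks, for ATRX peaks with and without H3K9me3 and H3K9me3 peaks with and without ATRX, with replicate 1 as circles, replicate 2 as squares and the genome as a dotted line. ATRX peaks with H3K9me3 (75.8% and 74.7% masked) stand above those without it (32.7% and 41.8%), which lie on either side of the genome value of 36.4%.

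Accessible chromatin and G4 were read from the ATAC and G4 peaks of the same replicate number. ATAC peaks overlapped 7.78% and 2.99% of the ATRX peaks and 13.9% and 4.13% of the H3K9me3 peaks, with values of both marks interleaved (mean difference 3.65 points, exact permutation p = 0.667). The mean difference was -0.280 when peaks were set to 500 bp at the summit. Where the -log10 p reached 5, ATAC overlapped 43.6% and 52.2% of the ATRX peaks, above the 17.3% and 8.34% of the H3K9me3 peaks. At least 2 TTAGGG units in a row lay in 32.6% and 42.2% of the summit windows of these ATRX peaks. For these H3K9me3 peaks the shares were 0.0283% and 1.51%. The ATAC peaks were called without input, and the part of such repeats in this overlap was not tested. G4 peaks overlapped 9.31% and 19.2% of the ATRX and 23.3% and 24.5% of the H3K9me3 peaks (mean difference 9.68 points, exact permutation p = 0.33). Of the sequenced genome, ATAC peaks covered 1.71% and 2.19% and G4 peaks 3.36% and 15.2%. An overlap of at least 1 bp also grows with the width of both peaks. An expected share was not computed, so none of these overlaps is shown to exceed it. Within the ATRX lists, G4 peaks overlapped those with H3K9me3 more often, at 14.2% against 7.99% in replicate 1 and 30.9% against 16.9% in replicate 2. Among peaks whose -log10 p reached 5 this turned in replicate 1, with 36.9% against 57.4%, and stood at 27.3% against 24.4% in replicate 2. Of the windows of these peaks with and without H3K9me3, 13.5% and 67.2% held such TTAGGG units in replicate 1, and 54.0% and 2.44% in replicate 2. The difference between the marks also split where the -log10 p reached 5, to -14.9 points in replicate 1 and 22.0 in replicate 2. The G4 order was thus not shared by the stronger peaks.

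Telomeric tracts, which hold at least 4 TTAGGG units in a row on either strand, are where the marks parted by replicate. The assembly holds 362 of them. ATRX overlapped 202 (55.8%) in replicate 1 and 179 (49.4%) in replicate 2, and 151 in both. H3K9me3 overlapped 24 (6.63%) in replicate 1 and 208 (57.5%) in replicate 2. Of the tracts with ATRX, 10.4% carried H3K9me3 in replicate 1 and 96.6% in replicate 2, so the co-occupancy seen there rests mostly on replicate 2. The difference, H3K9me3 minus ATRX, was -49.2 points in replicate 1 and 8.01 in replicate 2 (mean -20.6, exact permutation p = 1). In 500 bp windows, at least 2 TTAGGG units in a row were found in 1.82% and 0.919% of the ATRX peaks and 0.0798% and 0.20% of the H3K9me3 peaks, against 0.0242% of the genome. At an alignment that places reads on one of many near-identical repeats, a tract without a peak is not shown to lack the mark.

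Peaks of ATRX shared little from replicate to replicate. Peaks of replicate 2 overlapped 377 of replicate 1 (5.17%), and peaks of replicate 1 overlapped 378 of replicate 2 (2.78%). Of the H3K9me3 peaks, 60.7% of replicate 1 and 45.2% of replicate 2 overlapped a peak of the other list. These lists cover more of the genome, which raises such shares. Relative to the covered share, peak centres lay inside peaks of the other replicate 15.1 and 17.5 times as often for ATRX and 15.7 and 13.4 times for H3K9me3, so by this measure the marks were interleaved. Counted over 2660 stretches of 1 Mb, Pearson's r of peak numbers was 0.53 between the ATRX lists and 0.85 between the H3K9me3 lists. Without chromosomes 6 and 8 the ATRX value fell to 0.38, over 2387 stretches. Across marks and numbers, where no input is shared, r was 0.41 and 0.37. Neighbouring stretches share their chromosome, and r is given as a description.

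The ATRX peaks that did recur were more often in H3K9me3 than the lists as a whole. Of the 385 pairs, 201 (52.2%) overlapped H3K9me3 in both replicates, 116 (30.1%) in 1 replicate and 68 (17.7%) in neither. With 81 on tracts, most pairs with H3K9me3 in a single replicate were tracts. Outside tracts, H3K9me3 in both replicates was the most frequent state. Promoters held 0, 2 and 2 of the pairs.

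The strongest recurring site ranked 1 and 2 in the ATRX lists, with 1050 and 860 tags and a -log10 p of 136 and 36.1. It lay at chr9:123927409-123934467, between genes near the end of chromosome 9, and H3K9me3 peaks of both replicates overlapped it. The next was in the intron of Erdr1, on the Y sequence of the assembly, at chrY:90810135-90814021, ranked 2 and 1, with 673 and 320 tags. Asmt, which encodes the last enzyme of melatonin synthesis, held ATRX peaks that together spanned nearly the whole gene at chrX:170672688-170677938 (ranks 31 and 9), and H3K9me3 covered 100% and 47.1% of the gene. Vmn2r29, a vomeronasal receptor gene, held a site across its start (ranks 14 and 62).

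In the same class, Dapk1 (ranks 85 and 82), Pepd (104 and 114) and Bbox1 (151 and 86) held telomeric tracts, with 18 to 35 ATRX tags each. Lrrfip2 (48 and 136), Arhgap10 (82 and 212) and Iqgap1 (25 and 300), which encodes a cytoskeletal scaffold protein, are tandem repeats with periods of 23, 26 and 38 bp. Slc38a1, a glutamine transporter gene (379 and 404), held neither a tract nor such a repeat. Of these 10 genes, 9 held the site in an intron, and H3K9me3 covered 2.53% to 100% of each gene in replicate 1.

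Other genes led where no H3K9me3 peak of either replicate overlapped the site, although the kinds of repeat recurred: A1cf held a tract, and Mpdz and Frmd3 tandem repeats with periods of 42 and 12 bp. Pld1, which encodes phospholipase D1, held the strongest such site within a gene (chr3:28113594-28114661, ranks 27 and 124, 43 and 25 tags). Afg1l, which encodes a mitochondrial ATPase, followed with ranks 36 and 131, and Lrfn2, a synaptic adhesion gene, with 263 and 238. Capn2, the gene of a calpain subunit, stood at 70 and 601, Zc3h7a at 590 and 339, Ubqln1 at 339 and 704 (in the 3' UTR), and A1cf at 151 and 724. The last of the 10 were Frmd3 (818 and 1180), Mpdz (1976 and 186) and Mup18 (2386 and 757), a major urinary protein gene. None of these 10 genes reached a rank of 100 in both lists, whereas Erdr1, Asmt, Vmn2r29 and Dapk1 of the first class did. Sites without H3K9me3 that lay outside genes also reached it, on chromosome 10 (worse of both ranks 66) and chromosome 7 (93). H3K9me3 was not detectable at these sites at the depth of these libraries, and 7 of the 10 genes carried an H3K9me3 peak of at least 1 replicate elsewhere in the gene.

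The ends of chromosomes 9, X and Y held many of the strongest ATRX peaks, a measure chosen after the values were seen. The last 2 Mb of each chromosome make up 1.43% of the sequenced genome. They held 34% and 23% of the 100 strongest ATRX peaks and 2.29% and 1.87% of all, and 11% and 15% of the 100 strongest H3K9me3 peaks and 1.81% and 1.903% of all. Of the 34 strong ATRX peaks at the ends in replicate 1, 3 lay on chromosome 9, 5 on X and 26 on Y. Of the 23 in replicate 2, 3, 4 and 12 did. Over all ATRX peaks the counts were 10, 11 and 40 of 167, and 12, 11 and 25 of 255. A raised share at chromosome ends in general is thus not shown. Of the 20 strongest recurring ATRX pairs, 13 lay there, 3 on chromosome 9, 1 on X and 9 on Y. Among all recurring pairs, 29 of 37 at the ends and 172 of 348 elsewhere carried H3K9me3 in both replicates.

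The study describes these cells as XX, so peaks placed on chromosome Y are given by their position in the assembly, and the source of their reads was not tested. The Y sequence was poor in peaks of both marks except at this end, which holds the pseudoautosomal region shared with X. ATRX had 48 peaks on Y in each list, of which 40 and 25 lay in the last 2 Mb, and H3K9me3 had 117 and 244, of which 25 and 38 did. Reads from the pseudoautosomal region of X and Y cannot be told apart. Of the peaks placed on Y, 77.1% and 68.8% of those of ATRX overlapped H3K9me3, the highest share of any chromosome in each list.

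Tandem repeats with a period of 7 to 60 bp, also searched for after the values were seen, were called in 200 bp at the summit where at least 70% of bases matched the base a period away and no period of 6 bp or less did. They made up 1.89% and 0.956% of ATRX and 1.49% and 0.548% of H3K9me3 summits, and 0.247% of genome positions taken every 50 kb. Both marks were thus above the genome. ATRX peaks with H3K9me3 held more of them than those without, at 4.15% against 1.28% and 1.94% against 0.764%, and H3K9me3 peaks with ATRX more than those without, at 3.42% against 1.38% and 1.58% against 0.514%. Among recurring ATRX pairs, the share was 7.96% with H3K9me3 in both replicates, 6.03% with it in 1 and 5.88% with it in neither.

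Over gene bodies, 933 of 26182 curated genes (3.56%) held an ATRX peak in both replicates and 2800 (10.7%) an H3K9me3 peak in both. Both marks in both replicates were found in 535 genes, which is 57.3% of the genes with ATRX. Gene length enters these counts, since of the 540 genes over 300 kb, 264 (48.9%) held ATRX and 431 (79.8%) H3K9me3 in both replicates. Per Mb of gene body, ATRX peaks numbered 2.82 and 4.13 in the 23382 genes without H3K9me3 in both replicates, 7.06 and 12.8 in the 542 genes with 5 to 20% of the body covered, and 22.6 and 29.8 in the 130 genes with at least 20% covered, taking the smaller of both H3K9me3 shares. The 2128 genes with up to 5% covered stood at 2.66 and 5.22, below the genes without H3K9me3 in replicate 1 and above them in replicate 2. ATRX density was thus higher in both replicates from 5% coverage on, and not below it.

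Zinc finger genes, which encode the KRAB repressors of retroviral elements among others, led the coverage by H3K9me3. A peak of both replicates lay in 98 of 395 (24.8%, all genes 10.7%), and H3K9me3 covered 8.402% and 4.08% of their summed length against 1.78% and 1.01% for all genes. An ATRX peak of both replicates lay in 10 of 395 (2.53%, all genes 3.56%). Zinc finger genes have a median length of 16.1 kb, and the 7202 genes of 10 to 30 kb, with a median of 17.4 kb, held ATRX in both replicates in 0.805% and H3K9me3 in 6.50%. By these counts zinc finger genes stood higher than genes of 10 to 30 kb for both marks, and higher than all genes for H3K9me3 alone. Only the median lengths are alike, since the zinc finger list was not limited to that range. Among its members with ATRX in both replicates are Zfp978 (267 kb) and Zfp423 (298 kb), so length still enters this comparison. Per Mb, ATRX counted 4.22 and 6.67 peaks in zinc finger genes, 3.29 and 5.06 in genes of 10 to 30 kb and 2.89 and 4.82 in all genes. Among coding genes of at least 10 kb with no ATRX peak in either list, H3K9me3 covered most of Zfp936 (99.0% and 64.0%), followed by Zfp33b (78.02% and 42.0%), Gm10033 (63.4% and 41.4%), Zfp932 (81.6% and 41.3%) and Zfp992 (71.9% and 41.0%). With ATRX in both replicates the leading genes were Zfp988 (70.9% and 37.4%), Gm13212 (32.8% and 35.9%), Zfp978 (37.9% and 32.5%), Dhrs2 (52.5% and 30.9%), a dehydrogenase gene, and Lsmem1 (31.9% and 19.5%). Zfp978, which spans Zfp988, held 5 and 8 ATRX peaks beside 17 and 53 H3K9me3 peaks. Wide H3K9me3 coverage was thus found both with and without ATRX.

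The other zinc finger genes with ATRX in both replicates were Zfp277, Zfp987, Zfp180, Zfp292, Zfp423, Zfp800, Zfp40 and Zfp469. Among these 8, ATRX covered the most of Zfp180, 7.25% and 6.57% of its body, together with H3K9me3 over 63.7% and 18.4%. Zfp40 and Zfp469 had 1 ATRX peak in each list and none of H3K9me3. Olfactory and vomeronasal receptor genes, which are short and silent in ES cells, held ATRX in both replicates in 4 of 1453 (Vmn1r7, Vmn2r29, Vmn2r126 and Vmn2r77; 0.275%, all genes 3.56%) and H3K9me3 in 36 (2.48%, all genes 10.7%). By summed length the order turned. ATRX covered 0.161% and 0.766% of these genes against 0.133% and 0.277% of all genes. H3K9me3 covered 2.79% and 2.15% against 1.78% and 1.01%. The low gene counts are thus not a sign of less of either mark per base.

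Of 27 germline genes, listed as silenced in ES cells, 3 held ATRX over the body in both replicates (Mov10l1, Stk31 and Tex11; 11.1%, all genes 3.56%) and 7 held H3K9me3 in both (25.9%, all genes 10.7%). Their median length is 31.9 kb, against 13.4 kb for all genes. Both marks in both replicates were found in 2 of the 27. Mov10l1, the gene of a helicase of the piRNA pathway, had 1 ATRX peak in each list, with H3K9me3 over 15.4% and 11.6% of the gene. Stk31, a germ cell kinase gene, had 1 and 2 ATRX peaks, with H3K9me3 over 11.04% and 10.4%. Within 1 kb of the start, H3K9me3 lay at 11 of the 27 genes in replicate 1 (40.7%, all genes 2.28%). In replicate 2 it lay at none of them (all genes 1.96%), so that state was not shared by the replicates. An ATAC peak lay within 1 kb of the start of 16 of the 27 in replicate 1 and 20 in replicate 2. Of all 26182 genes, 15552 and 16624 had one. Whether the listed germline genes were silent in these cells was not tested. Cytosolic ribosomal protein genes, active in every cell, held ATRX in both replicates in 0 and H3K9me3 in 1 of 80 (all genes 3.56% and 10.7%), with a median length of 3.02 kb.

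Few transcription starts carried either mark in both replicates. An ATRX peak of both replicates lay within 1 kb of the start of 8 genes (0.0306%), and H3K9me3 of both within 160 (0.611%). Among the 8, picked out after their values were seen, were Asmt, Vmn2r29, Vmn1r7 and both annotated copies of Erdr1. Of 20 pluripotency genes, Tfcp2l1, a transcription factor of naive ES cells, alone held ATRX over its body in both replicates, with 1 peak in each list, and none held H3K9me3 in both, where all genes stood at 3.56% and 10.7%. The 11 genes measured under the name of the alpha-globin locus include Fam234a and Luc7l, which lie on chromosome 17, apart from the globin genes on chromosome 11. These 11 and the 39 Hox genes, most of them short, held neither mark in both replicates, and of 43 imprinted genes 6 held H3K9me3 and 0 held ATRX. With 3.56% and 10.7% of all genes called, counts this small in lists of this size set none of them apart.

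The labelled cell type was checked against promoter accessibility. An ATAC peak lay within 1 kb of the start of 11 of 12 ES cell markers in each replicate, Pou5f1 and Sox2 among them. The same held for 7 of 12 feeder fibroblast markers, among them Col1a1, Col1a2 and Thy1, and not for Col3a1, Col6a1, Postn, Lum and Prrx1. Over all 26182 genes, 15552 starts in replicate 1 and 16624 in replicate 2 had an ATAC peak. The feeder count is close to that share, and it does not set the feeder markers apart. Open promoters do not measure expression, and the part of residual feeder cells in these peaks was not tested. Neither marker list held an ATRX peak at a start, and H3K9me3 lay at 1 of the 24 starts, that of Lum, in replicate 1 only.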

How the data were processed

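ChIP-seq of ATRX and H3K9me3 was taken from scramble KD cells, 2 replicates each. Per the labels and methods of the study, the authors trimmed reads (Trim Galore 0.5.0), aligned them to mm10 (Bowtie2 2.3.4.1), removed duplicates (SAMtools 1.9) and called peaks in each library against input at a p of 0.01 (MACS 1.4.3 for ATRX and H3K9me3 and 1.4.2 for G4 per the file headers; 2.2.7.1 for ATAC). The deposited lists give positions, the count of tags per peak, a fold enrichment (the ratio to local background), a score equal to 10 times the -log10 of the p, and a false discovery rate in percent. A rate of 5% or less was reached by 0%, 0%, 21.1% and 99.9% of peaks in ATRX replicates 1 and 2 and H3K9me3 replicates 1 and 2, so it was not used as a filter. The deposited ATAC lists give a -log10 p. Because libraries were not scaled to each other, peaks were ranked within their list. Library depth ran from 5942692 to 15506154 tags, and a site without a peak is one where enrichment was not detectable at that depth.

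Peaks on chromosomes 1 to 19, X and Y were compared in Python 3.11.15 (NumPy 2.4.6, pandas 2.3.3, SciPy 1.17.1) with RefSeq GRCm38, which supplied all printed sequence, and its 26182 curated genes (21000 coding, from 45756 transcripts). Features were assigned by peak centre and sequence was read in 500 bp at the summit, against all such windows of the genome. Groups follow the public labels. Marks were compared over the 4 lists with exact permutation tests, two-sided, and overlaps with covered bases with exact sign-flip tests. Neither can pass 0.05 with 2 lists a mark. The replicate numbers pair the marks because lists of a number share an input, and over 2660 stretches of 1 Mb the deviations of same-numbered lists from their mark's mean gave r = 0.35, with 2 pairs only. By the file names ATRX replicate 2 came from another sequencing lane than its input and H3K9me3 replicate 2.

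The compared lists, gene lists and alternatives were chosen with earlier results of these data known. Named genes are the 10 with the best-ranked recurring ATRX site in the gene or 5 kb upstream with H3K9me3 in both replicates, the 10 with it in neither, the 5 coding genes of at least 10 kb most covered by H3K9me3 without ATRX and the 5 with it in both replicates, and list members with ATRX in both. Sites on chromosome 18 were counted and not named. The interval code was tested on simulated data, 20 runs of 500 intervals, with 0 errors. Read coverage and the TERRA KD lists were not used here, and some sequences are not reported here.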

Additional observations from a re-analysis of the deposited data

Results flagged for a closer look

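Peaks on sequences of the assembly outside chromosomes 1 to 19, X and Y entered no comparison above. ATRX replicates 1 and 2 held 31 and 50 such peaks and H3K9me3 replicates 1 and 2 held 102 and 227, each above the 3 counts that would be allowed for a count of 0. Unplaced contigs hold sequence that could not be assigned a place, so the neighbourhood of these peaks was not analysed here.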

How the results depend on the processing

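Of 121 values recomputed for 16 results under 13 settings, 109 kept their direction (and, where no test was attached, stayed within the spread between replicates), 9 turned direction and 3 moved by more than the spread between replicates. Part of the 109 could not have changed. The replicate block alters only the p, and leaving out a replicate cannot move an overlap share without a test beyond that spread. No p could pass 0.05 under any of them. Sizes moved more: ATRX centres minus the share covered by H3K9me3 (14.3 points) came to 55.5 where the -log10 p reached 5 and 7.06 at 500 bp, the log2 ratio of peak numbers to 5.56 at the first, and the G4 difference (9.68) to 25.2 with lists of equal length and 3.84 at 500 bp. Where the -log10 p reached 5, the log2 difference of X to autosome density (H3K9me3 minus ATRX) was -0.138, the ATAC difference -35.1 points and the GC difference -0.966 points (1.91 over all peaks), and 59.2% of ATRX peaks overlapped H3K9me3 and 1.29% of H3K9me3 peaks overlapped ATRX. With every list shortened to its best-ranked 7290 peaks, the difference in genes with a peak over the body was -3.70 points (7.14 over all peaks). At 500 bp around the summit the ATAC difference was -0.280 points. When 50% of the peak had to overlap, it was -1.69 points, the G4 difference was -0.0285 points, and 1.12% of H3K9me3 peaks overlapped ATRX. Leaving out each replicate, the log2 ratio of median widths ran from -0.12 to 2.48. The difference in telomeric tracts ran from -49.2 to 8.01 points. Over whole lists, the wide domains and the negative tract difference thus come from replicate 1 alone. With the best-ranked 7290 peaks of each list, the replicates shared both directions. The log2 width ratio was then 3.52 and 0.853, and the tract difference -55.2 and -4.14 points. Where the -log10 p reached 5, the width ratio was 2.29 and 0.339 but the tract difference -27.3 and 12.4 points. The causes were not tested. The replicate block left every difference as it was, the mean log2 ratio of peak numbers at 2.17, with p = 0.5 from the exact sign-flip test on 2 pairs, and changed no call. Leaving out chromosomes 6 and 8, chosen after the data were seen, changed no direction. Few tags per peak limit the placement of single ATRX peaks.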

Other observations

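Some recurring ATRX sites outside H3K9me3 were arrays of the hexamer AGGTCA, read on the other strand as TGACCT. Nuclear receptors recognise it, and extended to AAGGTCA it is bound by Esrrb, a transcription factor of ES cells. The search was made after these sites had been read. At least 3 copies of AAGGTCA on either strand in 500 bp were found in 4 of the 68 recurring ATRX pairs with H3K9me3 in neither replicate (5.88%, up to 27 copies), 2 of the 116 with it in 1 and 0 of the 201 with it in both, against 0.0223% of genome windows. Over whole lists they lay in 11 peaks of ATRX replicate 1 (0.151%), 10 of replicate 2 (0.0735%), 12 of H3K9me3 replicate 1 (0.0456%) and 15 of replicate 2 (0.0197%). These counts are small and no test is attached. At least 3 copies of the shorter AGGTCA lay in 5 of the 68 pairs (7.35%), 2 of the 116 and 1 of the 201, against 0.460% of genome windows. Over whole lists its shares were 0.782% and 0.368% for ATRX and 0.468% and 0.320% for H3K9me3. The whole lists thus lay on either side of the genome value for AGGTCA. The hexamer, in capitals, occurs 11 times in 200 bp of the Pld1 intron (chr3:28113911-28114110), 13 times in the Capn2 intron (chr1:182500931-182501130) and 12 times in an intergenic stretch of chromosome 7 (chr7:137516699-137516898), all GRCm38, plus strand. A match in sequence does not show that a receptor binds there.
Pld1: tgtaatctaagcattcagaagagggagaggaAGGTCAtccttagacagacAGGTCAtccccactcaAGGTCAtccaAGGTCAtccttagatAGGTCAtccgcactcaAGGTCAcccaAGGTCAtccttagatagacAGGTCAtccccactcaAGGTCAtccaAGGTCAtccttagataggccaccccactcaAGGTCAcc
Capn2: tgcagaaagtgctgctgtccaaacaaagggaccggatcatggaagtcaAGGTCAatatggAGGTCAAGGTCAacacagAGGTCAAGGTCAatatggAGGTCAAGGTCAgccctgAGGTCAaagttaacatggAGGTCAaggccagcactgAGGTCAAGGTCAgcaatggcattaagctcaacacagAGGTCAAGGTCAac
Chromosome 7 site: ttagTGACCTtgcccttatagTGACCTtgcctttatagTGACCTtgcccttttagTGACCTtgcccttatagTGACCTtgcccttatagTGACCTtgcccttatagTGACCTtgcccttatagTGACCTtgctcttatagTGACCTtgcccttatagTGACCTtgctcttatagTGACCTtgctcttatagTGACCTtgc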
